A study of Drosophila melanogaster with 7 samples.

Results

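The proteasome subunit genes of Drosophila melanogaster were followed in eye imaginal discs, the larval epithelia that form the compound eye, of 2 sevenless (sev) genotypes. Members were taken by current gene symbol (Prosalpha, Prosbeta, or Rpn or Rpt followed by a digit) and needed a value on at least 1 array. This gave 28 genes of the 5971 named genes with a value, 13 for the core particle, 8 for the base and 7 for the lid. The gene table held 48 such symbols, 32 for the standard subunits and 16 for related copies whose symbols end in T or R with or without a digit. Of the standard subunits 26 had a value. The other 6 (Prosbeta1, Prosbeta6, Rpn9, Rpn10, Rpt1 and Rpt6) had no probe that named them alone, the one probe listing Prosbeta6 also listing CG4101, and were not analysed here. Of the related copies only Prosalpha1R and Rpt3R had a value, while 12 had a probe without a value on any array and 2 had no named probe. Of the 28 members 24, or 85.7%, had a value on all 7 arrays, against 37.9% of all genes with a value.

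The discs came from larvae of the third instar of sevS11 and of sevd2;+;+, both in a w1118 background and staged with bromophenol blue. Each array set 1 genotype against a common pool of RNA from w1118;+;+, an isogenic wild-type strain. For sevS11 there were 3 arrays: replicates 1 and 2 carried RNA of extraction 1 with the dyes exchanged, and replicate 3 carried RNA of extraction 2 with the mutant in Cy5. For sevd2 there were 4 arrays, replicates 1 and 2 for extraction 1 and replicates 3 and 4 for extraction 2, with the dyes exchanged within each pair. The Sevenless receptor, a tyrosine kinase, is needed for a precursor cell to become the R7 photoreceptor. sevS11 is known as an activated form of it and sevd2 as a loss-of-function allele, and the labels give neither the promoter of sevS11 nor the number of larvae in an extraction. One label field names wing discs for the reference pool where the others name eye discs.

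The proteasome is the protease that degrades proteins tagged with ubiquitin. Its core particle is a barrel of outer alpha rings, which gate the entrance, and inner beta rings, which hold the active sites of Prosbeta1, Prosbeta2 and Prosbeta5. The regulatory particle caps the barrel. Its base holds the Rpt ATPases, which unfold substrates, together with the scaffold subunits Rpn1 and Rpn2 and the ubiquitin receptors Rpn10 and Rpn13, and its lid holds the deubiquitinating enzyme Rpn11 and a framework of other Rpn subunits. In the eye disc the repressor Tramtrack is marked for degradation by Sina, Phyllopod and Ebi downstream of Sevenless, which makes the ubiquitin system part of R7 specification.

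Values are the deposited ratios, taken as log2 and likely of mutant over reference. The 3 swapped pairs were deposited in 1 direction, since their arrays correlated across genes at 0.889 for sevS11 extraction 1 and at 0.722 and 0.645 for sevd2 extractions 1 and 2. The direction rests on sev itself, which stood at 1.81, 1.90 and 4.33 on the sevS11 arrays and at -0.46, -0.17 and -0.41 on the 3 sevd2 arrays with a value, so sev does not check the labels. The arrays held values for 4701 to 7009 probes, and their number limits the precision. A ratio compares a transcript's share of the RNA, and fewer cells of a type and less RNA per cell cannot be told apart. Values were found for 17 of 19 eye disc markers and 7 of 11 wing disc markers. Of 12 tested eye disc markers 9 lay above 0 in sevS11 and 8 in sevd2. The 4 tested wing disc markers (Doc2, tsh, ara and caup) ranged from -0.27 to 0.095 in sevS11 and from -0.065 to 0.14 in sevd2. Of the untested wing disc markers, mirr stood far higher, at 1.33 and 1.46 on sevS11 replicates 1 and 2 and at 1.70 on sevd2 replicate 1. The others were ap, at -0.057 and -0.10 on sevS11 replicates 1 and 3, and zfh2, at 0.26 on sevS11 replicate 3. The listed vg, nub and rn had no value. Whether the genes with a value mark wing discs against eye discs was not tested, so they do not settle the tissue of the pool. All 11 hemocyte markers had a value, and the 7 tested had a median of 0.37 in sevS11, where 3 rose, and of -0.79 in sevd2, where none passed (limma; 5 at an unadjusted p under 0.05). Between the genotypes PPO1 and PPO2 were higher in sevS11 (limma, adjusted p = 0.0429 and 0.018), the only 2 of all genes tested that passed. Of the 7 tested hemocyte markers 5 lay above 0 in sevS11 and 1 in sevd2. Over these 7 the medians of the extractions were 0.45 and 0.30 in sevS11 and -0.90 and -0.67 in sevd2, and their part in the proteasome values was not tested. Of 11 testis markers, listed because some of the related copies are testis forms, only bam had a value.

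**Figure D1:**
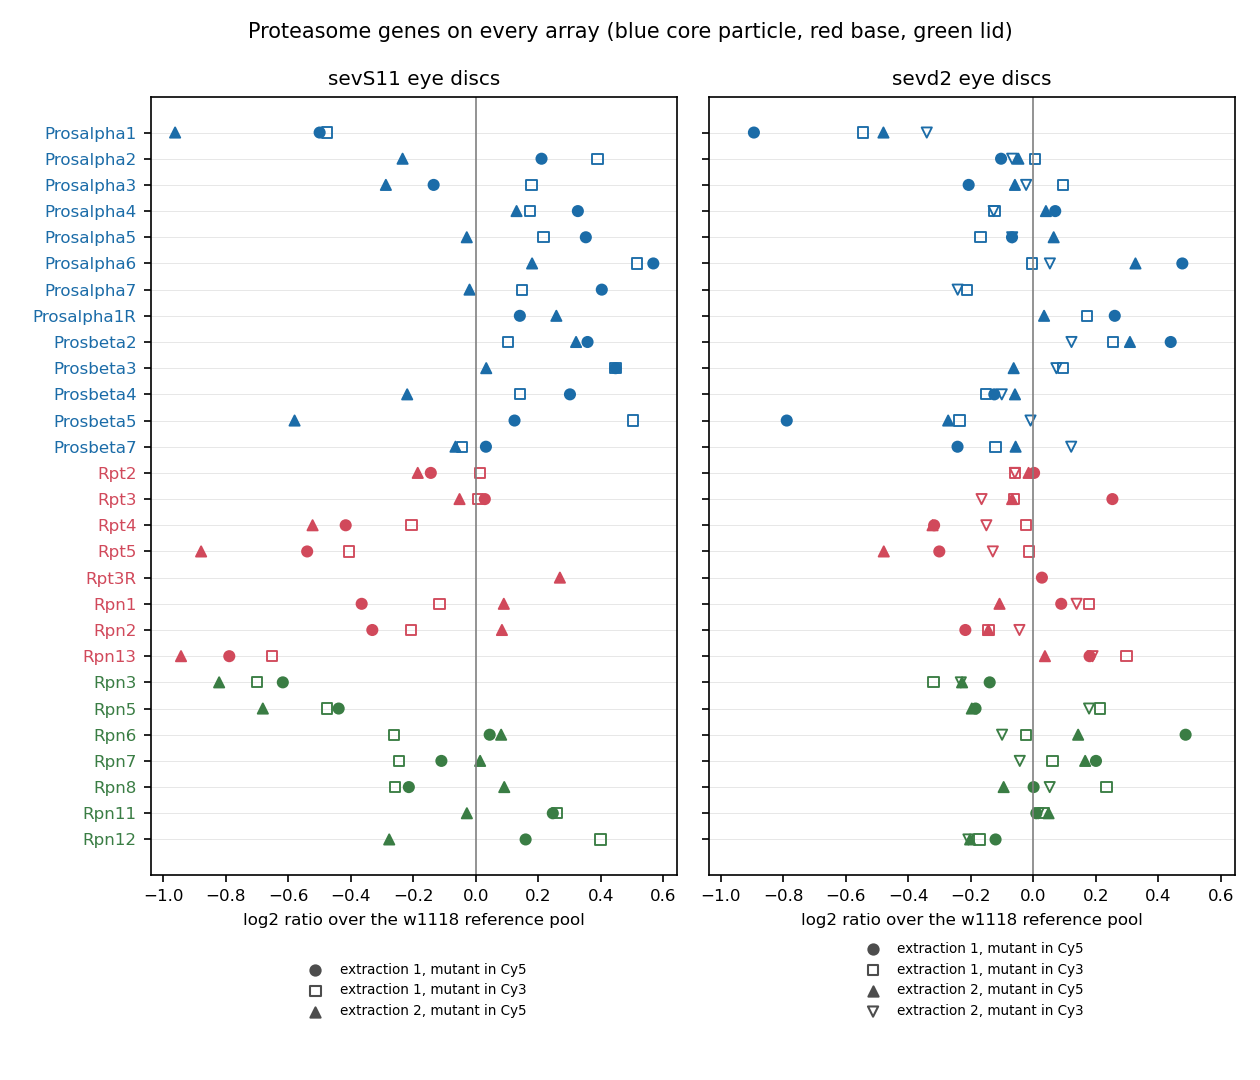
Each of the 28 proteasome genes (rows) on each array, as log2 ratio over the w1118 reference pool (horizontal axis), with sevS11 in the left panel and sevd2 in the right. Filled symbols have the mutant in Cy5 and open symbols in Cy3, and shapes mark the extraction. For Rpn13, Rpn3 and Rpn5 the 3 sevS11 arrays all lie below the 4 sevd2 arrays, as they do for 18.2% of all genes tested.

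In sevS11 discs 5 of 27 tested proteasome genes fell against the reference and none rose (limma, at an adjusted p under 0.05). Over all 3586 genes tested 3.6% were lower and 2.18% higher, or 5.77% in either direction. At an unadjusted p under 0.05 there were 6 proteasome genes, all lower, against 25.3% of all genes, 14.2% lower and 11.2% higher. The 5 were the ubiquitin receptor gene Rpn13, the lid genes Rpn3 and Rpn5, the ATPase gene Rpt5 and the alpha ring gene Prosalpha1. Thus 2 of 7 base genes, 2 of 7 lid genes and 1 of 13 core particle genes passed. The test took the mean of 2 extractions against 0, with the spread shared by both genotypes, and Rpt3R, which had no value from 2 of the extractions, was not tested. The fit leaves out the spread of the reference pool.

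Rpn13, whose product binds ubiquitin chains at the base, had log2 ratios of -0.79, -0.65 and -0.94 on the sevS11 arrays 1, 2 and 3. All lay below 0, and the dye-swapped arrays of extraction 1 stood closer to each other than to 0. The fitted log2 ratio was -0.80 ± 0.10 (SE, n = 2 extractions), a level of 0.575 times the reference (limma, adjusted p = 0.0197). Only 1 of the 2 Rpn13 probes had a value on any array. Rpn3, a framework subunit of the lid, stood at -0.62, -0.70 and -0.82 on the same arrays. Its fitted log2 ratio was -0.76 ± 0.10 (SE, n = 2), or 0.59 times the reference (limma, adjusted p = 0.0227). Both genes passed under all 22 alternatives tried, with log2 ratios from -0.88 to -0.58 for Rpn13 and from -0.87 to -0.60 for Rpn3.

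Rpt5, an ATPase of the base ring, had log2 ratios of -0.54, -0.41 and -0.88 on the sevS11 arrays, with the lowest on the unswapped array of extraction 2. After the dye correction of that array the extractions stood at -0.47 and -0.75 and the fit at -0.61 ± 0.11 (SE, n = 2; limma, adjusted p = 0.0409). Rpn5, another framework subunit of the lid, stood at -0.44, -0.48 and -0.68, and its fitted log2 ratio was -0.51 ± 0.094 (SE, n = 2; limma, adjusted p = 0.0411). Prosalpha1, a structural subunit of the outer ring, stood at -0.50, -0.48 and -0.96, and its fitted log2 ratio was -0.68 ± 0.14 (SE, n = 2; limma, adjusted p = 0.0495). All 3 genes lay below 0 on every sevS11 array, with values on arrays 1 and 2 close to each other and lower ones on array 3. Prosalpha1 was the only member with values from more than 1 probe, and its 2 probes, each by itself, gave -0.68 and -0.66 for sevS11. The probe at -0.68 had no value on array 1, so that its extraction 1 rests on the Cy3 array alone, not corrected for the dye. The comparison of both probes was added after the data were seen. The related copy Prosalpha1R stood on the other side of 0, at 0.18 ± 0.10 (SE, n = 2; limma, adjusted p = 0.320). These 3 calls were near the threshold. Without sevS11 replicate 1 the calls of Rpt5 (-0.64), Rpn5 (-0.58) and Prosalpha1 (-0.72) ended, as they did without sevS11 replicate 2 (-0.55, -0.37 and -0.61). Those of Rpt5 and Rpn5 also ended without sevd2 extraction 1 (-0.62 and -0.53) and that of Rpn5 without sevd2 extraction 2 (-0.52), with limma adjusted p between 0.0515 and 0.138 in these fits. Without the dye correction Rpt5 (-0.68, adjusted p = 0.0542) and Prosalpha1 (-0.73, adjusted p = 0.0655) did not pass in limma's test. Nor did Prosalpha1 with centred arrays (adjusted p = 0.0583) or in the robust fit (0.0537), or Rpn5 in the array-level fit (0.0597), where Rpt4 passed in its place, or with the sevS11 extractions alone (0.125), all in limma. Scaled arrays, quantile normalisation and no filter on missing values ended all 3 calls. In the array-level fit 9.9% of all genes passed in sevS11.

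The other base genes stood between -0.36 and -0.027 in sevS11 and none of them passed. Rpt4, a neighbour of Rpt5 in the ATPase ring, came closest, with log2 ratios of -0.42, -0.21 and -0.52 on the arrays and -0.36 ± 0.095 in the fit (SE, n = 2; limma, adjusted p = 0.0916). The ATPase genes Rpt2 (-0.12 ± 0.095) and Rpt3 (-0.053 ± 0.11) stood nearer to 0. The scaffold genes Rpn1 and Rpn2 had extractions on opposite sides of 0, at -0.24 and 0.19 for Rpn1 and at -0.27 and 0.13 for Rpn2. Of the lid, Rpn6 (-0.10 ± 0.10), Rpn7 (-0.12 ± 0.096) and Rpn8 (-0.044 ± 0.12), the partner of Rpn11, lay slightly below 0, and the deubiquitinase gene Rpn11 (0.11 ± 0.11) and Rpn12 (0.016 ± 0.14) above it, none of them passing. Rpt3R, a related copy of Rpt3, had a value on 1 sevS11 array, 0.27 on array 3.

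The highest sevS11 ratios were those of core particle genes. Prosalpha6, a subunit of the outer ring, had log2 ratios of 0.57, 0.52 and 0.18 on the arrays and a fitted value of 0.29 ± 0.14 (SE, n = 2; limma, adjusted p = 0.249). Prosbeta3, a structural subunit of the inner ring, stood at 0.45, 0.45 and 0.034, with 0.26 ± 0.12 in the fit (limma, adjusted p = 0.253). Prosbeta2, which carries the trypsin-like site, stood at 0.36, 0.10 and 0.32, with 0.22 ± 0.096 in the fit (limma, adjusted p = 0.217). Their arrays all lay above 0, but the ratios did not pass. Prosbeta5, which carries the chymotrypsin-like site, stood at 0.12, 0.50 and -0.58, so its extractions, at 0.31 and -0.38, lay on opposite sides of 0 and the fitted value was -0.033 ± 0.19 (limma, adjusted p = 0.926). The other 8 core particle genes lay between -0.079 (Prosalpha3) and 0.18 (Prosalpha1R) and did not pass. Leaving out sevS11 replicate 3 removes all of extraction 2, and the single extraction left is then assumed to vary like those of sevd2. In that fit Prosalpha6 stood at 0.54, Prosbeta3 at 0.45 and Prosalpha7 at 0.28, and they were among 15 of 27 proteasome genes that passed in limma's test, 8 of them higher and 7 lower. In the same fit 46.9% of all genes passed, 22.7% higher and 24.1% lower.

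The medians of core particle, base and lid are given as a description, with no test. In extraction 1 the core particle genes had a median log2 ratio of 0.25, with 11 of 13 above 0. The base had a median of -0.27 with 1 of 7 above 0, and the lid one of -0.18 with 2 of 7 above 0. In extraction 2 the core particle median was -0.090 with 5 of 13 above 0, the base median -0.18 with 2 of 7 and the lid median -0.096 with 1 of 7. All genes tested had medians of -0.033 and 0.0053 in these extractions, with 45.9% and 50.8% above 0. Core particle genes thus stood above base and lid in extraction 1, while in extraction 2 the medians lay within a range of -0.18 to -0.090. For 12 of 13 core particle genes the value in extraction 2 was below that in extraction 1, with a median difference of -0.38, against 48.1% of all genes and a median difference of 0.019. The exception was the related copy Prosalpha1R. For the base it was 5 of 7 genes, with a median difference of -0.11, and for the lid 4 of 7, with -0.10.

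The difference between the extractions was as large without the dye correction. Arrays 1 and 3 of sevS11 both had the mutant in Cy5 and can be compared as deposited. On array 3 again 12 of 13 core particle genes were below array 1, by a median of -0.39, against 49.9% of all genes with both values and a median difference of 0.00081. Prosbeta5 stood at -0.58 on array 3 and 0.12 on array 1, Prosbeta4 at -0.22 and 0.30, and Prosalpha2 at -0.23 and 0.21. Of the lid, Rpn12 (-0.28 and 0.16) and Rpn11 (-0.028 and 0.25) went the same way, and Rpn8 (0.091 and -0.21) the opposite way. Averaged over extractions, the core particle median was 0.064, that of the base -0.12 and that of the lid -0.10, against -0.0035 over all genes tested. Over both extractions 5 core particle genes, and no base or lid gene, lay above 0 in each, and 2 core particle, 4 base and 4 lid genes lay below 0 in each. The remaining 12 genes, or 6, 3 and 3, had extractions of opposite sign, as did 39.5% of all genes.

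**Figure D2:**
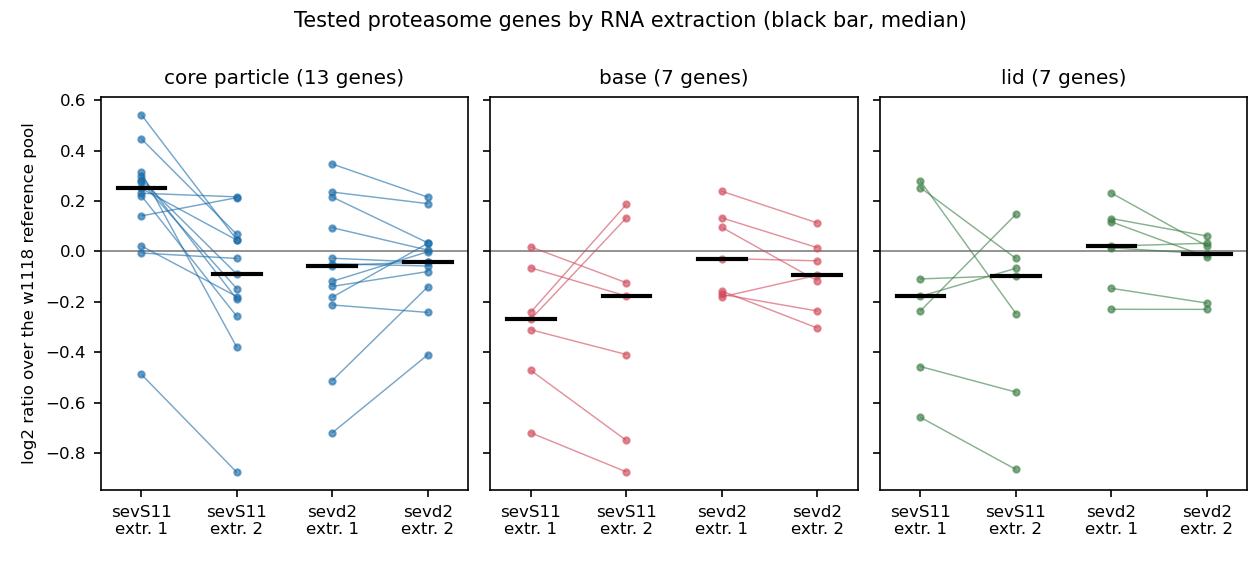
Log2 ratio over the reference pool (vertical axis) of the 27 tested proteasome genes in each RNA extraction, in 1 panel each for core particle, base and lid, with sevS11 left of sevd2. Lines join the extractions of a genotype for 1 gene and black bars are medians, which for the core particle stand at 0.25 and -0.090 in sevS11 and at -0.056 and -0.041 in sevd2.

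In sevd2 discs none of the 27 tested proteasome genes passed in limma's test, where 0.0837% of all genes passed, 0.0558% higher and 0.0279% lower. At an unadjusted p under 0.05 there were 2, Prosalpha1 lower and Prosbeta2 higher, against 9.76% of all genes, 5.38% lower and 4.38% higher. The lowest ratio was that of Prosalpha1, at -0.89 and -0.55 on the arrays of extraction 1 and -0.48 and -0.34 on those of extraction 2. All 4 arrays lay below 0, and the fitted log2 ratio was -0.57 ± 0.14 (SE, n = 2; limma, adjusted p = 0.243). Scaled arrays (-0.70, adjusted p = 0.0286) and quantile normalisation (-0.67, adjusted p = 0.0258) brought it under the threshold in limma's test, in fits where 4.85% and 4.63% of all genes passed. The next lowest were Prosbeta5, at -0.79, -0.24, -0.27 and -0.0090 on the arrays, and Rpt5, at -0.30, -0.013, -0.48 and -0.13. Their fitted log2 ratios were -0.33 ± 0.19 and -0.23 ± 0.11. The arrays with the mutant in Cy5 were the lower ones of each pair for these genes, and the dye effect, averaged over the 3 swapped pairs, was -0.20 for Prosbeta5 and -0.13 for Rpt5.

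The highest sevd2 ratios were those of Prosbeta2, Prosalpha6 and Rpn13. Prosbeta2 stood at 0.44, 0.25, 0.31 and 0.12 on the arrays, all above 0, with 0.28 ± 0.096 in the fit (SE, n = 2; limma, adjusted p = 0.405). Prosalpha6 stood at 0.48, -0.0053, 0.33 and 0.053, with 0.21 ± 0.14 in the fit. Rpn13 stood at 0.18, 0.30, 0.037 and 0.19, and its fitted value of 0.18 ± 0.10 did not pass (limma, adjusted p = 0.677). Of the other genes lower in sevS11, Rpn3 lay below 0 on all 4 sevd2 arrays (-0.14, -0.32, -0.23 and -0.23), with -0.23 ± 0.10 in the fit. Rpn5 lay below 0 on the arrays with the mutant in Cy5 (-0.18 and -0.20) and above 0 on those with it in Cy3 (0.21 and 0.18), so that its fitted value was 0.0025 ± 0.094. Prosalpha7 had values on the Cy3 arrays alone, -0.21 and -0.24, and these were not corrected for the dye. The remaining members ranged from -0.20 (Rpt4) to 0.13 (Rpn6) in the sevd2 fit, none of them passing.

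The parts of the proteasome stood close together in sevd2. The extraction medians were -0.056 and -0.041 for the core particle, -0.028 and -0.094 for the base and 0.021 and -0.0093 for the lid, against 0.0079 and 0.0078 over all genes tested. Of the 27 genes 9 lay above 0 and 14 below 0 in both sevd2 extractions, and 4 had opposite signs, against 26.4% of all genes. The interquartile range of the members' fitted log2 ratios was 0.20 in sevS11 and 0.22 in sevd2, against 0.35 in sevS11 and 0.20 in sevd2 over all genes tested. Their SD over genes was 0.31 in sevS11 and 0.18 in sevd2, against 0.32 in sevS11 and 0.21 in sevd2 over all genes, so that the order of the spreads depends on the measure.

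Between the genotypes, none of the 27 proteasome genes differed at an adjusted p under 0.05 (limma, sevS11 minus sevd2), where 0.0558% of all genes passed. The unadjusted p was under 0.05 for 3 of them, all lower in sevS11, against 12.7% of all genes, 7.14% lower and 5.61% higher. The difference was lowest for Rpn13, whose log2 ratios of -0.79, -0.65 and -0.94 on the sevS11 arrays did not overlap with 0.18, 0.30, 0.037 and 0.19 on the sevd2 arrays. It came to -0.97 ± 0.14 (SE, n = 2 extractions each), a sevS11 level of 0.509 times that of sevd2 (limma, adjusted p = 0.0938). The value lay between -1.05 and -0.82 in the alternatives. It passed in the array-level fit (-0.97, adjusted p = 0.0134), without sevS11 replicate 3 (-0.90, adjusted p = 0.00345) and without sevS11 extraction 1 (-1.05, adjusted p = 0.00751), all in limma. The last 2 of these fits rest on a single sevS11 extraction, and 40.7% and 9.25% of all genes passed in them.

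The 2 lid genes that fell in sevS11 had the next lowest differences. Rpn3 differed by -0.53 ± 0.14 (limma, adjusted p = 0.243) and Rpn5 by -0.51 ± 0.13 (limma, adjusted p = 0.233), and for both the sevS11 arrays all lay below the sevd2 arrays. With Rpn13 these were the 3 members of that kind, against 18.2% of all genes, and for 2 of the 27 tested members all sevS11 arrays with a value lay above, against 13.9%. Without sevS11 replicate 3 (Rpn3 -0.43, Rpn5 -0.46) or sevS11 extraction 1 (Rpn3 -0.64, Rpn5 -0.49), which again left 1 sevS11 extraction, both differences passed in limma's test. Prosalpha1, low in both genotypes, differed by -0.12 ± 0.20, and Rpt5 by -0.38 ± 0.16. The comparisons with the reference share the reference pool, so that low values in both do not count as independent of each other. Prosalpha7 stood at 0.40, 0.15 and -0.020 on the sevS11 arrays, above its -0.21 and -0.24 on the sevd2 arrays, which all had the mutant in Cy3. Prosbeta3, at 0.45, 0.45 and 0.034 on the sevS11 arrays, overlapped with its 0.094, -0.063 and 0.074 on 3 sevd2 arrays. The highest differences were those of Prosbeta5 (0.29 ± 0.27), Prosalpha7 (0.29 ± 0.18) and Prosbeta3 (0.21 ± 0.17), none of which passed (limma, adjusted p from 0.517 to 0.634).

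By part, 10 of 13 core particle genes lay above 0 in the difference, with a median of 0.091, against 1 of 7 for the base, with -0.10, and 2 of 7 for the lid, with -0.22. The median over all genes tested was -0.015, with 47.8% above 0. Both sevS11 extractions were below both sevd2 extractions for 8 of 27 genes, 4 of the base (Rpt2, Rpt4, Rpt5 and Rpn13) and 4 of the lid (Rpn3, Rpn5, Rpn6 and Rpn7), against 26.7% of all genes. Both were above for 2 genes, Prosalpha4 and Prosalpha7, against 22.3% of all genes. For Prosalpha7 the sevd2 values come from Cy3 arrays alone. With its dye effect taken out, an alternative added after the data were seen, they became -0.085 and -0.11, above the -0.15 of sevS11 extraction 2, and the difference became 0.16. The count over all members is near that of the background, and no core particle gene was among the 8. The core particle median depended on the sevS11 extraction: without replicate 3, all of extraction 2, the difference was 0.33, and without extraction 1 it was -0.049. Without sevS11 replicate 1 or replicate 2 alone the core particle difference was 0.13. The medians of base (-0.18 to -0.049) and lid (-0.27 to -0.10) stayed below 0 when any array or extraction was left out.

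**Figure D3:**
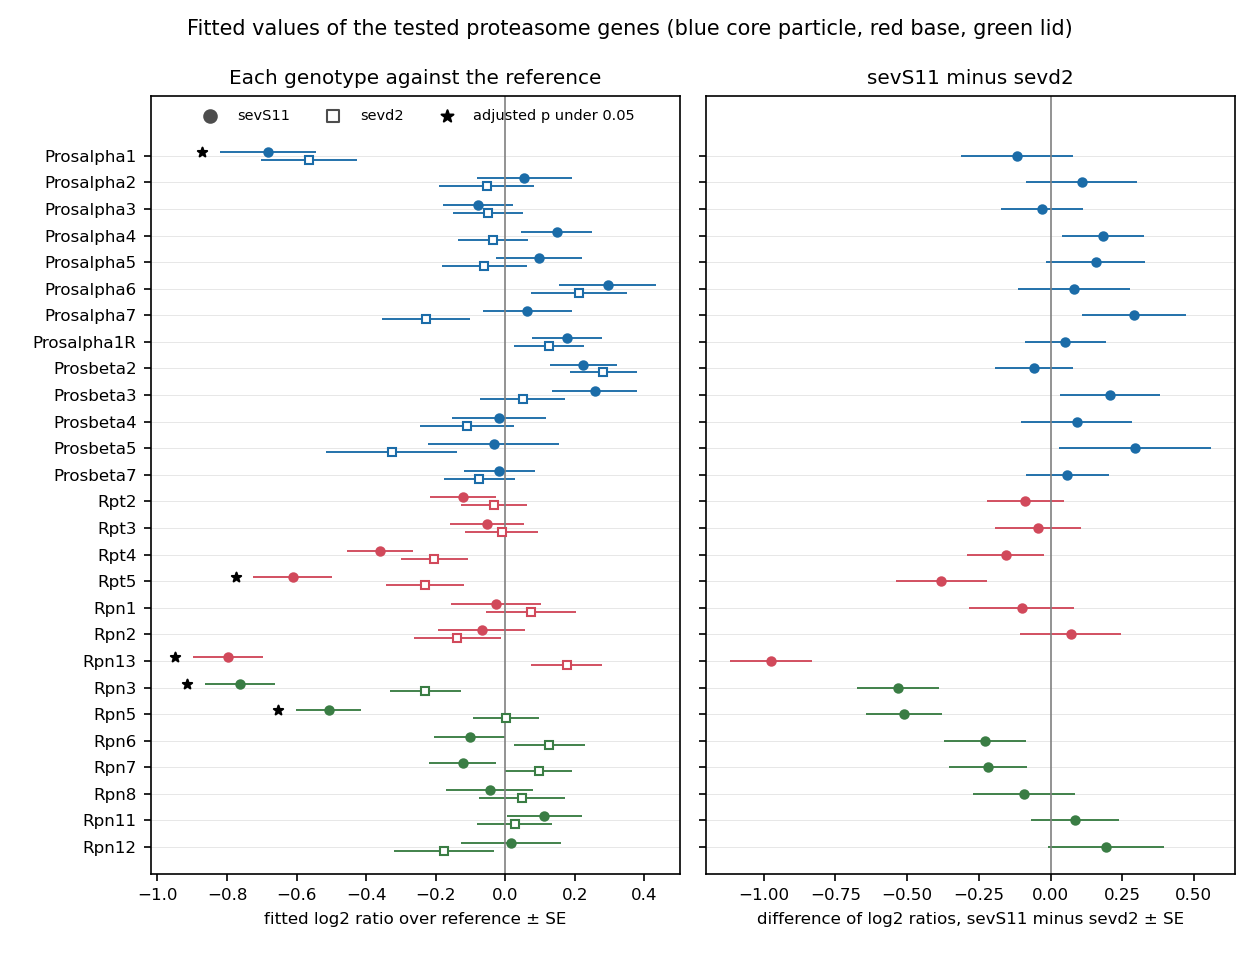
Fitted log2 ratio over the reference (left panel, filled for sevS11 and open for sevd2) and difference of the log2 ratios, sevS11 minus sevd2 (right panel), for the 27 tested proteasome genes, each with its SE from the shared fit. Stars mark the 5 genes with an adjusted p under 0.05, all in sevS11, and Rpn13 stands apart in the right panel at -0.97 ± 0.14.

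The genes that work with the proteasome are given by lists, with their counts. Of 12 tested partners of the proteasome, such as assembly factors, activators, shuttles and unfolding cofactors, none passed in sevS11, in sevd2 or between them (limma; 1, 1 and 0 at an unadjusted p under 0.05). Their medians were -0.018 in sevS11 and -0.0074 in sevd2. The lowest p values were those of Ufd1, a cofactor of the unfolding ATPase TER94 (-0.46 ± 0.11 in sevS11 and -0.50 ± 0.11 in sevd2), the proteasome activator gene REG (-0.22 ± 0.12 and -0.28 ± 0.12) and Uch-L5, a deubiquitinase that docks on Rpn13 (0.21 ± 0.098 and 0.0074 ± 0.098). Ufd1 lay below 0 on all 7 arrays, from -0.60 to -0.31 in sevS11 and from -0.58 to -0.44 in sevd2. It passed in sevS11 in the array-level fit (-0.45, adjusted p = 0.0303) and in sevd2 with scaled arrays (-0.64, adjusted p = 0.0209), both in limma. In these comparisons 9.9% and 4.85% of all genes passed.

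None of 7 tested genes of the COP9 signalosome, a complex built like the lid that removes Nedd8 from cullins, passed in any comparison (limma; 0 at an unadjusted p under 0.05 in each). Their log2 ratios ranged from -0.12 to 0.22 in sevS11 and from -0.16 to 0.17 in sevd2, with CSN6 at 0.22 ± 0.10 and CSN1b at -0.12 ± 0.099 in sevS11 and CSN3 at 0.17 ± 0.093 in sevd2. Among 10 tested ubiquitin, E1 and E2 genes none passed either (limma; 1, 0 and 2 at an unadjusted p under 0.05). The polyubiquitin gene Ubi-p63E stood at -0.85, -0.92 and -0.11 on the sevS11 arrays, against 0.42, 0.33, 0.16 and 0.21 on the sevd2 arrays, which did not overlap. Ubi-p63E was thus among the 18.2% of all genes tested whose sevS11 arrays all lay below their sevd2 arrays. Its difference was -0.79 ± 0.26 (limma, adjusted p = 0.311), and -1.17 without sevS11 replicate 3 (limma, adjusted p = 0.00242), with 1 sevS11 extraction left and 40.7% of all genes passing. The E2 gene Ubc2 differed by 0.41 ± 0.16 and RpS27A, which encodes a fusion of ubiquitin and a ribosomal protein, by 0.28 ± 0.20.

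Of 10 tested cullin-RING ligase genes, Cul1, the scaffold of the SCF ubiquitin ligases, fell in sevS11 and none rose (limma), with a list median of 0.11. Cul1 had values on 2 sevS11 arrays, -0.57 and -0.36, both with the mutant in Cy5, and stood at 0.25, -0.014 and 0.0027 on 3 sevd2 arrays. In sevS11 Cul1 was corrected for the dye in extraction 2 alone, to -0.49. Its fitted sevS11 ratio was -0.53 ± 0.096 (SE, n = 2; limma, adjusted p = 0.0409), in sevd2 it stood at 0.059 ± 0.096, and the difference of -0.59 ± 0.14 did not pass (limma, adjusted p = 0.206). The call ended without the dye correction or with that of the sevS11 pair, without sevd2 replicate 1, replicate 2 or extraction 1 (-0.46 in each), and without sevd2 extraction 2 (-0.53). It also ended with scaled arrays (-0.41), with no filter on missing values or with the sevS11 extractions alone (-0.53 in both), and limma's adjusted p lay between 0.0515 and 0.213 in these fits. Among 8 tested ubiquitin system genes known from eye development, phyl, the adaptor in Tramtrack degradation, rose in sevS11 and the ubiquitin ligase gene Cbl fell (limma, adjusted p = 0.0122 and 0.0197). phyl stood at 1.20 ± 0.12 in sevS11 and 0.12 ± 0.12 in sevd2, and Cbl at -0.86 ± 0.11 in sevS11 and -0.055 ± 0.11 in sevd2. In sevd2 and between the genotypes no gene of the cullin-RING list (limma; 0 and 1 at an unadjusted p under 0.05) or of the eye list (limma; 1 and 2) passed. The difference of phyl (1.08 ± 0.18) passed in the array-level fit (1.07, adjusted p = 0.0204) and with a replicate block (adjusted p = 0.00272), and that of Cbl (-0.80 ± 0.15) with the block (adjusted p = 0.0330), all in limma. Of all genes 0.948% passed between the genotypes in the array-level fit and 2.37% with the block. Without sevS11 replicate 3 or sevS11 extraction 1, each leaving 1 sevS11 extraction, phyl differed by 0.94 or 1.21 and Cbl by -0.93 or -0.64.

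**Figure D4:**
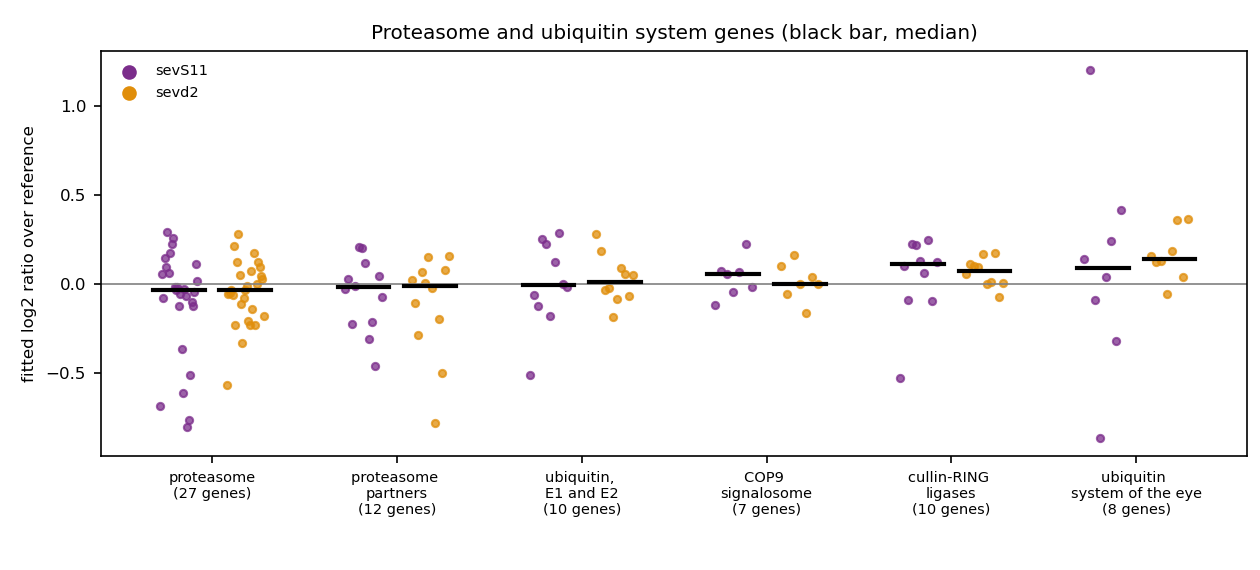
Fitted log2 ratio over the reference (vertical axis) of the tested genes of the proteasome and of 5 lists of the ubiquitin system, with sevS11 left of sevd2 and black bars for medians. The proteasome medians are -0.033 in sevS11 and -0.035 in sevd2, and the sevS11 points of the proteasome reach down to -0.80 for Rpn13.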

How the data were processed

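Per the labels, amplified RNA of each genotype was hybridised with the common pool in the other dye. The values deposited by the authors are normalised and were read as log2 ratios, base 2 following limma, which the submitters' processing notes name. How the background was corrected, how values were normalised or filtered, and their log base and sign are not stated in what was used here. Probe names follow the platform's annotation, possibly outdated, with symbols brought up to the Release 6 plus ISO1 MT gene table by gene identifier (12533 probes) or accession (120). Another 511 probes retain an older symbol, 101 have several genes and stayed unnamed, and 3151 have no entry. Probes of a gene and arrays of an extraction were averaged. For the unswapped sevS11 array the dye effect per gene was subtracted, except for 147 tested genes with no complete pair. This effect was 0.5 times the difference within a swapped pair, averaged over those of the 3 pairs that were complete for the gene. A gene with a value on only 1 array of a swapped pair was not corrected in that extraction. The 3586 genes with a value from every extraction went into 1 limma fit (version 3.58.1, R 4.3.3; lmFit, eBayes, prior degrees of freedom 3.8, residual 2), with Benjamini-Hochberg adjustment over all of them and a threshold of 0.05. Whether the extractions are of separate animals is not in the labels. The p-values therefore cover the spread among extractions alone, possibly a technical one.

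Members and lists were chosen with earlier results of these data known. Values on every array are given for members that passed, the 3 highest and 3 lowest per comparison and the catalytic subunits, and for each other list the genes that passed or the 3 of lowest p. Rpt4, Rpt2, Rpt3 and other members outside this rule were named to account for each part. No probe, promoter or protein sequences were used here.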

Additional observations from a re-analysis of the deposited data

Results flagged for a closer look

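Rpn13 was the only proteasome gene with the same sign on all sevS11 arrays and the opposite sign on all sevd2 arrays. The share of all genes with such signs was not counted. By the wider criterion of no overlap, all sevS11 arrays lay below all sevd2 arrays for 18.2% of all genes tested. They lay above for 13.9%. The difference of Rpn13, sevS11 minus sevd2, was -0.97 ± 0.14 (log2 ± SE, n = 2 extractions each). Its test in the fit over all genes gave an adjusted p of 0.0938 (limma), above the threshold, with adjusted p from 0.00345 to 0.599 over the alternatives, the highest without sevd2 extraction 1 (-0.91).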

How the results depend on the processing

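The count of 5 proteasome genes called in sevS11 became 3 without the dye correction and 2 with scaled arrays, quantile normalisation or no filter on missing values, Rpn13 and Rpn3 remaining in each, and was 2 to 15 with an array or extraction left out. The count of 0 in sevd2 (limma) became 1 with scaled arrays, quantile normalisation or the replicate block, in each case Prosalpha1, 2 at an unadjusted p, 3 with the sevd2 extractions alone, and 0 to 4 with arrays left out. The count of 0 between the genotypes (limma) became 1, Rpn13, in the array-level fit, with the replicate block or at an adjusted p under 0.1, 3 at an unadjusted p, and 0 to 11 with arrays left out. The counts of 15, 4 and 11 come from the fit without sevS11 replicate 3, where 1 sevS11 extraction is assumed to vary like those of sevd2 and where 46.9%, 14.5% and 40.7% of all genes passed. With the sevd2 extractions alone 13.8% of all genes passed in sevd2. In sevS11 5.77% of all genes passed in the main fit and 4.52% without the dye correction. The share was 3.24% with scaled arrays, 4.04% with quantile normalisation and 2.98% with no filter on missing values. Deviations of same-numbered extractions correlated at -0.065 across genes. A single correlation over all genes cannot show whether extractions of the same number share a batch. With the extraction numbers as a block Rpn13 differed by -0.97 (limma, adjusted p = 0.00524) and Prosalpha1 stood at -0.57 in sevd2 (limma, adjusted p = 0.0416), in fits where 2.37% and 2.57% of all genes passed.

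Medians were judged against their spread between extractions, which was small in sevd2. There the median of all members, -0.035, was -0.045 with centred arrays, -0.048 with scaled arrays, -0.064 with quantile normalisation and -0.042 for genes on all 7 arrays or without related copies, and -0.055 to -0.020 with arrays left out. The core particle median, -0.053, was -0.066 with scaled arrays and -0.084 with quantile normalisation, and -0.079 to -0.025 with arrays left out. Leaving out arrays gave -0.094 to -0.0032 for the base and -0.0093 to 0.060 for the lid in sevd2, and -0.27 to -0.086 for the base and -0.18 to -0.083 for the lid in sevS11. As the mean of the 2 extraction medians, each over every member with a value, the sevS11 base median was -0.21. In the fit with no filter on missing values, which added Rpt3R, it was -0.094. The lid difference, -0.22, was -0.14 without the dye correction, and -0.27 to -0.10 with arrays left out. Taken from the means of the extraction medians in place of the fitted values, over the same 7 genes, it was also -0.14. Of the alternative values of single named genes 1275 kept their sign and side of the threshold, 33 no longer passed and 60 newly passed. No single gene changed sign past the threshold under any alternative, and 34 values of single genes that did not pass changed sign.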
